A study of Mus musculus with 6 samples.

Results

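The Sp, Klf and Pou transcription factor genes were examined in Hepa1-6, a mouse hepatoma cell line, after knockdown of Zfp207 by short hairpin. Members were chosen by gene name in the count table, as Sp1 to Sp9, names made of Klf and digits, and names made of Pou, a digit and f. This gave 42 of 34718 genes, namely 9 Sp, 17 Klf and 16 Pou genes. There were 3 control libraries, titled shNC and labelled control in genotype, and 3 libraries titled shZfp207 and labelled Zfp207 knockdown, all from cells of the same line, which the growth protocol describes as cultured although the tissue tag reads Tumor. The labels do not say how many hairpins were used, or whether the libraries came from separate cultures, so p-values measure the spread between these libraries only, which may be technical. The rule also set control library shNC 1 apart because Sp1 and Pou2f1 were near zero there, so their values are given as a description and without a p, and the knockdown was tested against shNC 2 and shNC 3. The result of the test with all 6 libraries stands beside it.

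Sp and Klf proteins bind GC boxes and CACCC boxes of promoters through a conserved block of zinc fingers at the carboxyl end, and differ in the activation or repression domains that precede it. Sp1 and Sp3 are found in most cell types and act at many housekeeping promoters, whereas several Klf proteins are immediate early or hormone responsive and take part in liver metabolism and growth arrest. Pou proteins join a Pou-specific domain to a homeodomain and bind the octamer motif. Pou2f1, also called Oct-1, is the broadly expressed member of that family and acts at histone and small nuclear RNA promoters.

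Upstream sequences are shown for Sp1 and Pou2f1, which were both nearly lost from shNC 1, for Sp3, the close relative of Sp1 that was not, and for Klf9, which was higher after knockdown. They come from the RefSeq table (GRCm38.p6), lie within the 250 bases before the RefSeq start of the gene, leave out bases in GENCODE exons, and are written 5′ to 3′ on the strand of the gene. The Sp1 stretch is chr15:102406184-102406315 (plus strand), which lies inside the gene as GENCODE draws it but in no exon, that of Sp3 chr2:72980447-72980696 (minus strand), that of Pou2f1 chr1:166002679-166002884 (minus strand) and that of Klf9 chr19:23140976-23141225 (plus strand). The full Sp1 window begins at 102406066 and holds 41 exonic bases. Its bases before those, upstream of the GENCODE gene start at 102406143, are in no exon but are left out too. Capitals mark GC boxes, GGGCGG or CCGCCC on either strand.
Sp1: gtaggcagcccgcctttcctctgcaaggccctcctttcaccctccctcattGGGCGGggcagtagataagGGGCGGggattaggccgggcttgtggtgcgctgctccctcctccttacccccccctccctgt
Sp3: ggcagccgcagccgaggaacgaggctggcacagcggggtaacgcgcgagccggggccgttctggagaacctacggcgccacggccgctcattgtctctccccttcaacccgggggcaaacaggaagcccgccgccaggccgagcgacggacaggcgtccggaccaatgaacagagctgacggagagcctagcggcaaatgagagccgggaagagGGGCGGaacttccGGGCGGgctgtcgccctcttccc
Pou2f1: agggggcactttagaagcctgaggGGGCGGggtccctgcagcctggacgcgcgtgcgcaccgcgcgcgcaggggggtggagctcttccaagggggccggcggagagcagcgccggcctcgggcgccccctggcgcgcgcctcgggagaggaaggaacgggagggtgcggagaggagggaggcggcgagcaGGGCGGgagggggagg
Klf9: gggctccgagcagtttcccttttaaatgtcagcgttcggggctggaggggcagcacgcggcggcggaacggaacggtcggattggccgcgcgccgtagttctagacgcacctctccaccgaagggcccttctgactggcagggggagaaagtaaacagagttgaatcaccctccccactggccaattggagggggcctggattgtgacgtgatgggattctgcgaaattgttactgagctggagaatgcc
The Sp1, Sp3 and Pou2f1 stretches, of 132, 250 and 206 bases, each held 2 GC boxes and the Klf9 stretch, of 250 bases, held 0. In the full windows of 250 bases, with all left-out bases included, exonic or not, Sp1 had 4, Sp3 and Pou2f1 had 2 each and Klf9 had 0. The octamer ATGCAAAT or its reverse ATTTGCAT was in none of these 4 stretches. Of the 32851 RefSeq windows of the 250 bases before a start, 32.7% held at least 1 GC box, 52% at least 1 CACCC or GGGTG and 1.6% an octamer. Of the 41 such windows that belong to members, 27 held a GC box, 31 a CACCC box and 0 an octamer. These are letter matches, and 31 of the 42 members had an entry. CACCC is short and its matches can lie within longer GC-rich runs.

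The libraries held between 11933736 and 16248346 counts. Zfp207 had 141.4, 198 and 216.8 CPM in shNC 1 to 3, that is counts scaled to a library total of 1000000, and 46.8 to 48.1 CPM in the knockdown libraries. Mitochondrial genes took 10.51% of the counts of shNC 1, 2.67% and 2.89% in the other controls and 5.6% to 6% after knockdown. The 9 hepatocyte and hepatoma markers summed to between 5543 and 6916 CPM in control and 7393 and 7559 CPM in knockdown libraries, 4 of the 7 tested being higher and 2 lower, with Ttr and Serpina1a at 0 to 5 counts per library. The 5 lymphocyte markers had at most 0.265 CPM in sum and the 4 pluripotency markers were at 0 in every library. The 6 fibroblast markers summed to between 2044 and 2309 CPM in control and 2701 and 2783 CPM in knockdown libraries, nearly all from Dcn, which was higher after knockdown (log2 fold change 0.27), while Pdgfra was lower (-0.59) and Col1a1, Col1a2, Col3a1 and Pdgfrb were below 1 CPM. The 5 macrophage markers summed to 14.9 to 19.3 CPM in control and 14.6 to 16.8 CPM in knockdown libraries. Of these Csf1r rose 4.97-fold (adjusted p by edgeR 0.00109), from 0.411 and 0.862 CPM in shNC 2 and 3 to 3.41, 3.18 and 3.08 CPM. It was at 0.168 CPM in shNC 1. Its control levels are low, and it passed the filter on low counts only through the knockdown libraries, where it is high. Cd68 and Lyz2 did not pass the threshold and Ptprc and Adgre1 were too low to test. The 5 endothelial markers, which include the member Klf2, summed to 3.85 to 5.72 and 4.31 to 4.99 CPM, and the 4 neural markers to at most 0.67 CPM. Their part in the results below was not tested.

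Of the 42 members, 19 passed the filter on low counts, 9 had a few counts and 14 had 0 counts in all 6 libraries. A count of 0 allows up to 3 counts, or 0.185 to 0.251 CPM depending on the library, for counting error only. Sp6 and Sp8, Klf14 and Klf17, and 10 Pou genes were at 0, among them Pou5f1, the pluripotency factor Oct4, and the neural genes Pou3f1, Pou3f2, Pou4f1 and Pou4f2. Klf15, which promotes gluconeogenesis in liver, had 9 counts in shNC 1, 4 and 2 in shNC 2 and 3, and 0 to 1 after knockdown. Klf5 had 0 to 3, Klf8 0 to 4 and Klf1, the erythroid factor, 1 to 5 counts per library. Sp7, Sp9, Pou2f3, Pou3f3 and Pou5f2 had at most 2.

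Levels between genes were compared by the deposited FPKM, which divide by gene length. How that length was defined is not known here. For some members, among them Sp1, Sp3 and Klf9, the length it implies differs from the GENCODE exonic length. The order of genes and the ratios between genes depend on it. Klf6 was the most abundant member, with 103.8 and 99.7 FPKM in shNC 2 and 3, and made 43.8% and 42.9% of the Klf sum there. Klf10 followed at 47.4 and 46.9 FPKM, then Sp5, Klf16, Klf9, Klf4 and Sp1, which had a mean of 15.6 FPKM. Klf9, Klf4 and Sp1 lay close together, at 19.3 and 18.4, 16.7 and 17.4, and 17 and 14.2 FPKM in shNC 2 and 3, so that the order of Klf4 and Sp1 changes between these libraries. Sp3 had a mean of 11.4 and Pou2f1 one of 4.56 FPKM. Pou6f1 and Pou2f2 were the lowest of the tested members, with means of 0.839 and 0.133 FPKM.

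**Figure D1:**
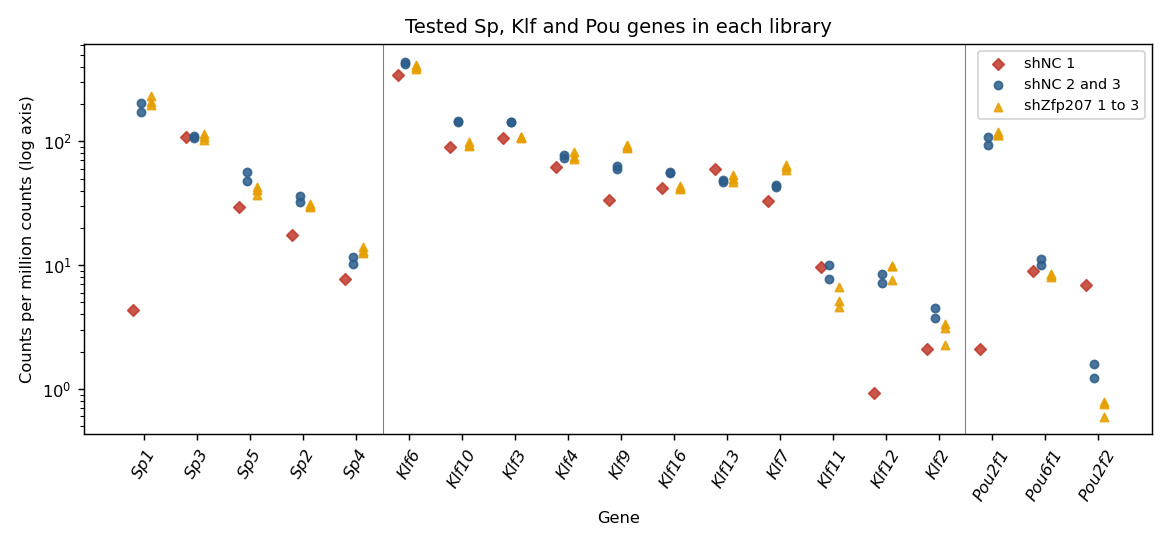
CPM (log axis) of the 19 tested Sp, Klf and Pou genes, 1 point for each library, ordered within each family by the mean of shNC 2 and 3. Sp1 (4.36 CPM) and Pou2f1 (2.09 CPM) in shNC 1 lie far below the other 5 libraries, while Pou2f2 in shNC 1 (6.96 CPM) lies above them.

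Sp1 and Pou2f1 were nearly lost from shNC 1 and abundant everywhere else. Sp1 (ENSMUSG00000001280, chromosome 15, 102406143 to 102436404 in mm10) had 52 counts in shNC 1 against 2994 and 2781 in shNC 2 and 3 and 3016, 3119 and 3379 in knockdown replicates 1 to 3. In CPM these were 4.36, then 205.2 and 171.2, then 197.9, 206.9 and 231, so that shNC 1 held 2.32% of the mean of the other controls. Pou2f1 (ENSMUSG00000026565, chromosome 1, 165865154 to 166002678) had 25 counts in shNC 1 against 1569 and 1515 in the other controls and 1719, 1684 and 1732 after knockdown. That is 2.09 CPM against 107.5 and 93.2 and against 112.8, 111.7 and 118.4 CPM, or 2.09% of the mean of shNC 2 and 3. For Sp1 the knockdown libraries overlapped with shNC 2 and 3, whereas for Pou2f1 all 3 lay above both.

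Without shNC 1, the log2 fold change on knockdown was 0.18 (SE 0.0961) for Sp1 and 0.19 (SE 0.0725) for Pou2f1. With all 6 libraries it was 0.75 (SE 0.999) and 0.76 (SE 0.981). The larger values rest on shNC 1, and with it the SE of both genes exceeds the fold change.

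No other tested member was under 10% of the other controls in shNC 1. Sp3, the relative that competes with Sp1 for GC boxes, had 107.3 CPM in shNC 1 and 110.5 and 106.8 CPM in shNC 2 and 3. The Sp1 level per Sp3 level, in FPKM, was 0.0321 in shNC 1, 1.47 and 1.27 in shNC 2 and 3 and 1.45, 1.44 and 1.79 after knockdown. Sp1 made 1.21% of the summed Sp FPKM in shNC 1 and 24% to 34.1% in the other 5 libraries. Pou2f2, or Oct-2, a B cell factor that binds the same octamer as Pou2f1, went the other way, with 83 counts in shNC 1, 23 and 20 in the other controls and 9 to 12 after knockdown. Klf12, a repressor that recruits CtBP, was the member next in order to Sp1, with 11 counts in shNC 1 against 104 and 139, or 11.8% of the mean of shNC 2 and 3. Next came Klf2 and Sp2, at 50.7% and 50.9%.

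Of the 19 tested members, 15 lay below both other controls and 2 above both, where 42.6% and 46.1% of the 12108 genes tested did so. In 13 members shNC 1 was the lowest of the 6 libraries, against 28.7% of genes. The median log2 ratio of shNC 1 to the mean of shNC 2 and 3 was -0.43 over the members and 0.03 over all tested genes with a count in shNC 1. Under 50% of that mean were 3 members (Sp1, Pou2f1 and Klf12), against 6.23% of genes, and 1 member, Pou2f2, was over 200%, against 7.56%. Under 10% were 2 members, against 0.138% of 10885 genes with a mean of at least 2 CPM. Among the 4366 genes with at least 50 CPM in both shNC 2 and 3, 4 (0.0916%) were under 10%, namely Adnp, Zfp292, Pou2f1 and Sp1. The rule used these values of Sp1 and Pou2f1, so the counts describe 1 library and are not a test.

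**Figure D2:**
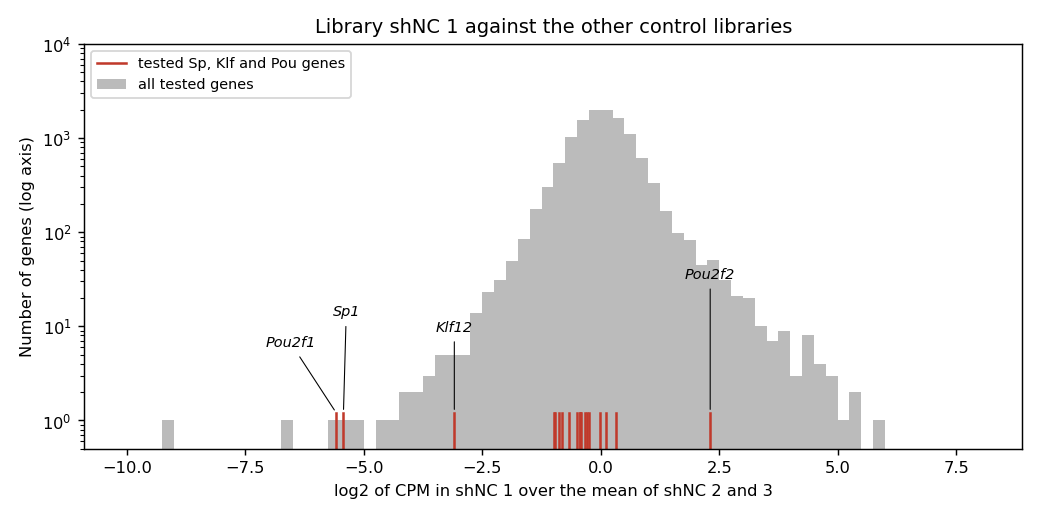
Number of genes (log axis) by the log2 ratio of CPM in shNC 1 to the mean of shNC 2 and 3, for the 12046 tested genes with a count in shNC 1 (grey), with the 19 tested members as red lines. Sp1 (-5.43) and Pou2f1 (-5.58) lie at the far left, Klf12 at -3.09 and Pou2f2 at 2.31, and the other members between -0.98 and 0.32.

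Genes of most similar pattern were sought by the distance between profiles of log2(CPM + 1) over the 6 libraries, each centred on its own mean. Predicted genes were left out of the 10885 genes with a mean of at least 2 CPM. Among the rest, Sp1 and Pou2f1 were each other's nearest gene (distance 0.146). The rule used the shNC 1 values of both genes, so their likeness is a description and not a test. Zfp292, a zinc finger gene, came next, at 0.467 from Sp1 and 0.537 from Pou2f1, with 12 counts in shNC 1 against 1414 and 1552 in the other controls and 1565 to 1675 after knockdown. Zfx, the X-linked zinc finger factor, Adnp, a homeobox and zinc finger gene of a chromatin complex, and Zfp74 followed at distances of 1.89 to 2.17. Zfx had 13.2 CPM in shNC 1 and 115.8 to 127.2 CPM elsewhere. Adnp had 6 counts in shNC 1, that is 0.503 CPM, against 248.9 to 287.5 CPM elsewhere. Up to 82.1% of its exonic sequence is shared with Gm20716 on the same strand, which had 2772 counts in shNC 1, 301 and 0 in the other controls and 0 to 601 after knockdown. Adnp and Gm20716 together had 232.8 CPM in shNC 1 and 276.4 to 297.3 CPM in the other libraries, so that their sum in shNC 1 was 81.2% of the mean of shNC 2 and 3.

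No such partner was found for Sp1 or Pou2f1. No exon of another annotated gene overlaps Sp1, and up to 18.1% of the Pou2f1 exons overlap Cd247 on the opposite strand, which had 0 or 1 count per library. Within 100 kb of Sp1, 9 other genes were tested, and their levels in shNC 1 were 74.8% to 199.9% of those in shNC 2 and 3. The untested genes of that window had at most 12 counts in shNC 1. Near Pou2f1 the tested neighbour Creg1 stood at 144.6%, and the 9 untested genes had at most 7 counts. Both genes have long transcripts, 7754 bases for Sp1 and 13050 for Pou2f1 at the longest against a median of 3407 over 10853 expressed genes. Over 10849 genes the correlation between log2 transcript length and the log2 ratio of shNC 1 to the other controls was -0.32 (Pearson) and -0.34 (Spearman). Over the 19 tested members, with Sp1 and Pou2f1 among them, it was -0.39 and -0.04. The rule used the shNC 1 values of Sp1 and Pou2f1, so the values over the members are a description and not a test. All are correlations across genes of the same 3 libraries, and genes are not independent replicates. Other tested members with long transcripts stood on both sides of the mean of shNC 2 and 3. In shNC 1, Klf12 (5890 bases) was at 11.8% of that mean and Klf7 (7662 bases) at 74.9%. Klf13 (6396 bases) was at 124.9% and Pou2f2 (7095 bases), with only 23 and 20 counts in shNC 2 and 3, at 495.5%. Sp4 (5694 bases) and Klf3 (5221 bases), next in length, were at 70.5% and 74%. The part of transcript length in the levels of shNC 1 was not tested.

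**Figure D3:**
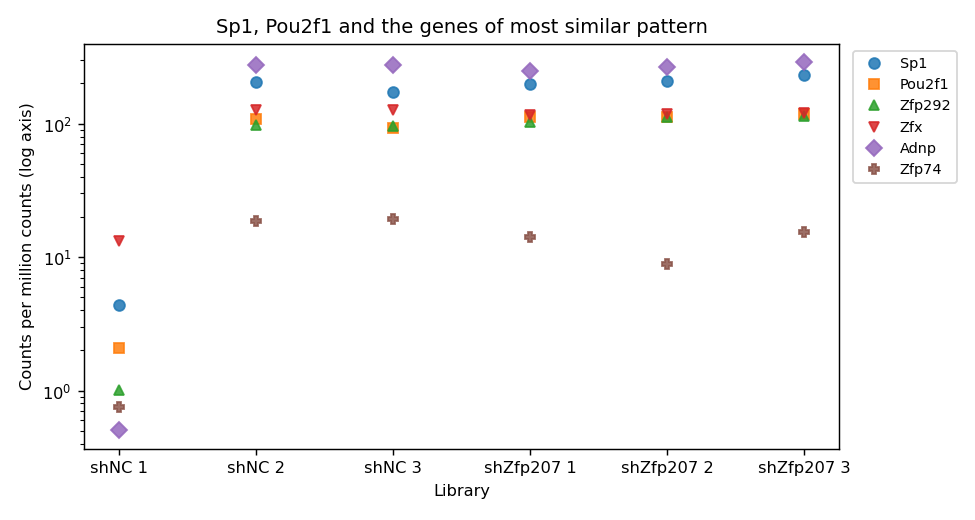
CPM (log axis) of Sp1, Pou2f1 and the genes of most similar pattern in each of the 6 libraries, 1 point for each gene and library. All 6 genes are lowest in shNC 1, from 0.503 CPM for Adnp to 13.2 CPM for Zfx, and differ far less among the other 5 libraries.

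Against shNC 2 and 3, knockdown changed 9 of the 17 members tested with a p, 2 upward (Klf7 and Klf9) and 7 downward (Klf3, Klf10, Klf11, Klf16, Sp5, Pou2f2 and Pou6f1), by edgeR's quasi-likelihood test with Benjamini-Hochberg adjusted p below 0.05. Over all 12108 genes tested 52.1% passed, 26.1% upward and 26.1% downward, so that 9 of 17 (52.9%) is close to the background. The median log2 fold change was -0.11 over the 19 tested members, Sp1 and Pou2f1 included, -0.18 over the 17 with a p and 0.01 over all genes. All 3 knockdown libraries lay above shNC 2 and 3 at 4 of the 19 and below them at 10, where 34.6% and 35.6% of genes did so. Against all 3 controls these were 4 and 3 of the 19, with 21.5% and 23.4% of genes. With shNC 1 included, 1 of the 17 was higher (Klf7) and 1 lower (Klf11), against 9.92% and 10.7% of 11975 genes (20.6% in either direction). Of the 7 calls this fit lost, Klf9, Klf10, Klf3, Klf16, Sp5, Pou2f2 and Pou6f1 had edgeR adjusted p of 0.0579, 0.181, 0.203, 0.219, 0.68, 0.084 and 0.241.

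Klf genes whose products recruit the corepressor Sin3 changed in both directions. Of 6 genes in this group, Klf9, Klf10, Klf11, Klf13, Klf14 and Klf16, 1 rose, 3 fell, Klf13 did not pass and Klf14 was at 0. Over all genes tested 26.1% rose and 26.1% fell, and the group was drawn up after values were seen. With all 6 libraries Klf11 alone of the group passed, as lower. Klf9, which is induced by glucocorticoid and thyroid hormone, had 63.2 and 60.1 CPM in shNC 2 and 3 and 87.7, 92.5 and 89.2 CPM after knockdown. The groups did not overlap, and shNC 1 lay below all of them at 33.3 CPM. Its level rose 1.46-fold (log2 fold change 0.55 with SE 0.0583; adjusted p by edgeR 0.000323), and the call held in all 10 alternatives on these libraries.

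Klf10, the TGF-beta inducible early gene, fell from 144 ± 0.987 CPM (SD, n = 2) to 94.7 ± 4.13 CPM (SD, n = 3), to 0.661 of the control level (log2 fold change -0.60 with SE 0.0524; adjusted p by edgeR 0.000147). The libraries were 144.7 and 143.3 CPM against 92.7, 99.5 and 92.1 CPM. Its level in shNC 1 was 90.2 CPM, which is 95.2% of the knockdown mean, so the groups overlap once that library is counted. The Klf9 level per Klf10 level, in FPKM, was 0.408 and 0.391 in shNC 2 and 3, 0.344 in shNC 1 and 0.867 to 0.904 after knockdown.

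Klf16 had 56.9 and 55.6 CPM in shNC 2 and 3 and 43.8, 41.5 and 41.9 CPM after knockdown (log2 fold change -0.40 with SE 0.063; adjusted p by edgeR 0.00189), with 41.8 CPM in shNC 1. Klf11, a relative of Klf10 known from beta cells and diabetes, was low throughout, at 10.1 and 7.69 CPM against 5.12, 4.58 and 6.63 CPM. It fell by 0.70 on the log2 scale (SE 0.203, edgeR adjusted p = 0.0238), and by 0.74 with all 6 libraries (edgeR adjusted p = 0.0468), since shNC 1 at 9.64 CPM lay among the controls. The call ended without shNC 2, knockdown replicate 1 or knockdown replicate 2 (edgeR adjusted p of 0.144, 0.071 and 0.0634). Klf13 had a log2 fold change of 0.08 (with SE 0.0732; adjusted p by edgeR 0.409).

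Among the Klf proteins that bind the corepressor CtBP, Klf3 was lower and Klf12 did not pass. Klf3, which restrains erythroid genes, had 143.9 and 143.8 CPM in shNC 2 and 3 and 108.2, 109 and 106.9 CPM after knockdown. The log2 fold change was -0.41 (with SE 0.0417; adjusted p by edgeR 0.000281), and shNC 1 at 106.5 CPM was at 98.6% of the knockdown mean. Klf12 had 7.13 and 8.55 CPM against 7.61, 9.75 and 9.77 CPM (log2 fold change 0.21 with SE 0.162; adjusted p by edgeR 0.311). Klf8, the other gene of this group, was too low to test.

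Of the Klf genes known mainly as activators, Klf7 rose and Klf2, Klf4 and Klf6 did not pass. Klf7, a regulator of neuronal growth and of fat cell differentiation, had 44.2 and 43.1 CPM in shNC 2 and 3, 32.7 CPM in shNC 1 and 59, 61.8 and 64.8 CPM after knockdown. All 3 knockdown libraries lay above all 3 controls. The log2 fold change was 0.51 (with SE 0.0699; adjusted p by edgeR 0.00101), and 0.64 with all 6 libraries (edgeR adjusted p = 0.0234). Up to 39.4% of the Klf7 exons overlap Gm13748 and Gm26649 on the opposite strand, which had 0 counts in every library.

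Klf6, an immediate early growth regulator and the most abundant member, had 438.9 and 421.5 CPM against 385, 397 and 410.2 CPM (log2 fold change -0.11 with SE 0.0449; adjusted p by edgeR 0.0815). Klf4, a factor of epithelial differentiation and of reprogramming, had a log2 fold change of 0.02 (with SE 0.0666; adjusted p by edgeR 0.806). Klf2, a factor of endothelium and resting T cells, was at 3.77 and 4.49 CPM against 3.35, 3.12 and 2.26 CPM (log2 fold change -0.50 with SE 0.223; adjusted p by edgeR 0.098). The activators Klf1 and Klf5 were too low to test.

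**Figure D4:**
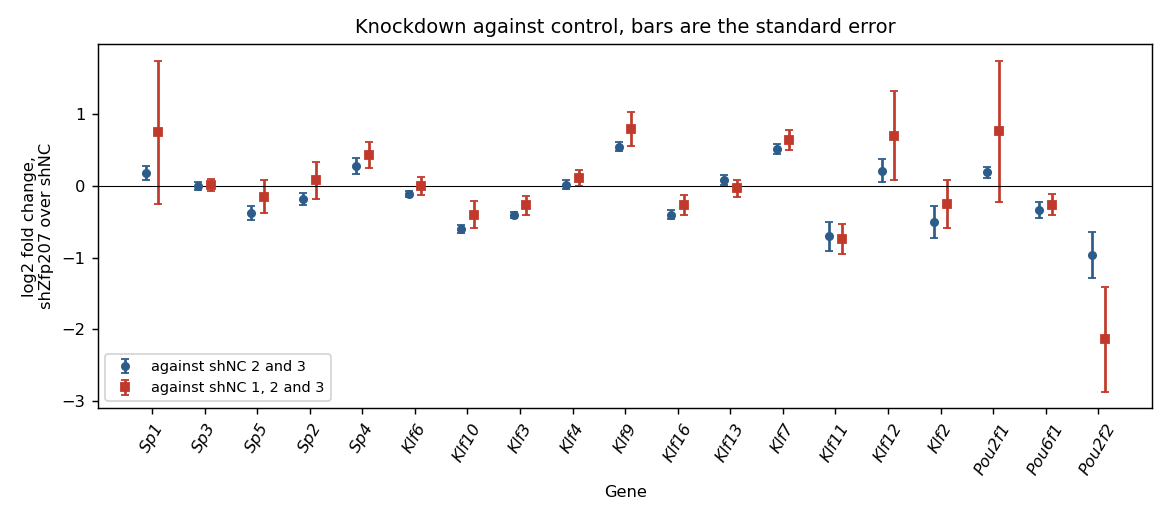
Log2 fold change of knockdown over control with its standard error for the 19 tested members, against shNC 2 and 3 (circles) and against all 3 controls (squares). The bars of Sp1, Pou2f1, Klf12 and Pou2f2 widen when shNC 1 enters, to 0.999, 0.981, 0.621 and 0.732.

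Of the Sp genes other than Sp1, Sp5 was lower and Sp2, Sp3 and Sp4 did not pass. Sp5, a target and feedback regulator of Wnt signalling, had 47.7 and 56.4 CPM in shNC 2 and 3 and 42.5, 37.1 and 40.1 CPM after knockdown (log2 fold change -0.38 with SE 0.0951; adjusted p by edgeR 0.0141). It was at 29.7 CPM in shNC 1, below every other library. The call ended without shNC 3 (edgeR adjusted p = 0.0949). Sp4, an activator best known from neurons, had 11.6 and 10.3 CPM against 12.5, 13.1 and 13.9 CPM, and all 3 knockdown libraries lay above the controls (log2 fold change 0.28 with SE 0.113; adjusted p by edgeR 0.0747). Sp2 and Sp3 had log2 fold changes of -0.18 (SE 0.083, edgeR adjusted p = 0.104) and 0.00 (SE 0.059, edgeR adjusted p = 0.967). Summed over Sp2 to Sp5, the FPKM were 42 and 45 in shNC 2 and 3, 29.5 in shNC 1 and 36.5 to 38.7 after knockdown.

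Both Pou genes tested with a p were lower after knockdown, and neither call held when any 1 library was left out. Pou6f1, known from brain, had 10 and 11.1 CPM in shNC 2 and 3 and 8.53, 8.29 and 8.07 CPM after knockdown (log2 fold change -0.34 with SE 0.111; adjusted p by edgeR 0.0356). Its call ended when any 1 of the 5 libraries was left out, with edgeR adjusted p of 0.0517 without shNC 2, 0.172 without shNC 3 and 0.0665, 0.0821 and 0.0873 without knockdown replicates 1 to 3. Pou2f2 had 1.58 and 1.23 CPM against 0.788, 0.597 and 0.752 CPM (log2 fold change -0.96 with SE 0.318; adjusted p by edgeR 0.0392). Its call also ended without any 1 library, with edgeR adjusted p of 0.197 without shNC 2, 0.0745 without shNC 3 and 0.0623, 0.0995 and 0.0755 without knockdown replicates 1 to 3, and DESeq2 gave an adjusted p of 0.162. With shNC 1, at 6.96 CPM, the log2 fold change was -2.14 (with SE 0.732; adjusted p by edgeR 0.084).

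Genes that work with these factors were read from lists chosen with earlier results of these data known, in the same fit, where 26.1% of all genes were higher and 26.1% lower. Of 19 chromatin cofactors of Sp and Klf proteins, 6 were higher and 5 lower, with a median log2 fold change of 0.00. The corepressor genes Ncor1 and Ctbp1 rose by 0.35 and 0.44 on the log2 scale, while Sin3b and Ctbp2 fell by 0.47 and 0.57. Mediator subunit genes also went both ways, with Med23 and Med24 lower by 0.34 and 0.42 and Med14 higher by 0.23. With all 6 libraries 3 of the list were higher and 2 lower. Of the genes named here only Sin3b passed, as lower (edgeR adjusted p = 0.043).

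Of 21 genes for enzymes that modify or degrade Sp and Klf proteins, 9 were higher and 5 lower (median 0.15). Ogt, the enzyme that attaches N-acetylglucosamine to Sp1 and many other proteins, rose by 0.84 on the log2 scale (SE 0.0533, edgeR adjusted p = 4.44e-05), from 54.7 and 55.1 CPM in shNC 2 and 3 to 96.3, 100.2 and 97.4 CPM. It was at 155 CPM in shNC 1, and with that library the log2 fold change was 0.17 (edgeR adjusted p = 0.795). The ubiquitin ligase gene Smurf2 rose by 0.43 on the log2 scale, while Fbxo32, a ubiquitin ligase subunit gene, fell to 0.379 of the control level. Smurf2 and Fbxo32 also passed with all 6 libraries, where 4 of the list were higher and 1 lower.

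Of 18 partners of Pou2f1 and factors of small nuclear RNA promoters, 4 were higher and 9 lower (median -0.17). Gtf2b, the general factor TFIIB, fell by 0.68, the snRNA promoter activator gene Zfp143 by 0.45 and Sfpq, an RNA and DNA binding partner of Nono, by 0.35, while Bdp1, a subunit of the RNA polymerase III factor TFIIIB, rose by 0.58 on the log2 scale. With all 6 libraries 3 passed, each lower, and of the genes named here that was Gtf2b alone (edgeR adjusted p = 0.00703). Of 14 other factors of GC-rich and CCAAT boxes, 4 were higher, among them Vezf1 (0.35), Maz (0.39) and Nrf1 (0.32), and Nfyb, a subunit of the CCAAT factor NF-Y, was lower (-0.38). With all 6 libraries 2 of that list were higher, Maz and Vezf1, and 1 lower, Nfyb.

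Of 18 tested genes known as Sp or Klf targets, 7 were higher and 4 lower (median 0.25). Ccnd1, the cyclin D1 gene, rose from 914.4 and 921.4 CPM in shNC 2 and 3 to 1324.5, 1314.9 and 1285.3 CPM (log2 fold change 0.52 with SE 0.0327; adjusted p by edgeR 4.44e-05), with 1157.6 CPM in shNC 1. Up to 23.4% of its exons overlap a gene on the opposite strand, and strand use in counting is not known here. The thymidine kinase gene Tk1 rose by 0.75 and the alanine transaminase gene Gpt2 by 0.27, while Vegfa fell by 0.34 on the log2 scale. With all 6 libraries 1 of 17 was higher and 2 lower, and of these 4 only Vegfa passed (edgeR adjusted p = 0.026). Of 7 tested genes of other Pou-like and CUT homeodomain factors, 2 were higher and 1 lower (median 0.01). Among them Hmbox1 rose by 0.46 and Onecut2 fell by 0.61 on the log2 scale. With all 6 libraries 1 of that list, Hmbox1, was higher and 1, Onecut2, lower.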

How the data were processed

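RNA of 6 Hepa1-6 samples was sequenced, 3 per group. The authors deposited raw counts per gene and FPKM values for 34718 genes. Per the submitters' processing notes HISAT2 2.0.5, featureCounts 1.5.0-p3 and mm10 were used, without a role for each, while annotation, strand setting and filters were not given in the sources used here. The deposited FPKM are counts per length and library total: over 8801 genes the implied length varied by at most 0.0223% between libraries. Of the identifiers 98.6% were found in GENCODE M21 (GRCm38), which gave strands, exons, overlaps and transcript lengths, an overlap being the share of exonic bases covered.

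The counts went into edgeR 4.0.16 under R 4.3.3 (filterByExpr, TMM scaling, quasi-likelihood fit with the group as its only term), on shNC 2 and 3 against the 3 knockdown libraries, two-sided, with Benjamini-Hochberg adjustment over all genes tested and a threshold of 0.05. The SE is the size of the log2 fold change divided by the square root of F. CPM are counts scaled to a library total of 1000000. The procedure was tested on simulated data. Alternatives were all 6 libraries, a replicate block, RLE scaling, 2 other filters, DESeq2 1.42.0 and leaving out each library. The members and lists, the choice to set shNC 1 apart and the naming rule (all members, up to 4 genes of smallest p per list, 5 genes of most similar pattern with predicted genes left out) were fixed with earlier results of these data known. Gene models named for overlap, genes next to Sp1 and Pou2f1 and role groups within Klf were chosen after values were seen. The same holds for the cofactor genes Sin3b, Ctbp2, Med14 and Med24. Some genes that the naming rule selects are not reported here.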

Additional observations from a re-analysis of the deposited data

How the results depend on the processing

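The count of genes past the threshold was 6313 against shNC 2 and 3, and 4942 to 5883 with any 1 of those 5 libraries left out. It fell to 2466 with all 6 libraries. The count of members past the threshold went from 9 to 2, and stayed between 6 and 7 with any 1 of the 5 libraries left out. The median log2 fold change of the 19 tested members was -0.11, between -0.14 and -0.08 with 1 library left out, and 0.00 with all 6.

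The replicate numbers shared by the groups do not show pairing: deviations from the group means correlated at -0.008, 0.008 and 0.053 between libraries of the same number. With the number as a replicate block, 5588 genes and 6 members passed without shNC 1, and 987 genes and 1 member with all 6 libraries, where the median was 0.01. Without shNC 1, number 1 is held by knockdown replicate 1 alone. That block fit therefore nearly repeats the fold changes of the fit without knockdown replicate 1 and is not a separate check. A call lost in a block fit need not mean a smaller effect.

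Fits chosen after the data were seen kept shNC 1 and left out shNC 2 or shNC 3. They called 1260 to 1529 genes and 0 to 1 members, with medians of 0.03 to 0.04, and without shNC 3 the log2 fold change of Sp5 was 0.05 (edgeR adjusted p = 0.894). In that fit, where edgeR called 0 members, 4 of 17 were at an unadjusted p below 0.05, and no other tool was run on it. Of the 9 members called, 5 (Klf3, Klf7, Klf9, Klf10 and Klf16) kept the call in all 10 alternatives without shNC 1, and the 8 not called stayed so. The lowest tested members were Pou2f2, with 9 to 83 counts per library, and Klf2, with 25 to 73, and the part of depth in the calls was not tested.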
